A study of Mus musculus with 18 samples.

Results

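Dividing cells that also hold a high level of Olfm4, a secreted glycoprotein and marker of the intestinal crypt base, were picked from the Lgr5+ sorted ileal epithelium by their transcripts. Each droplet of the single-cell RNA-seq assay carries a barcode, and each captured RNA molecule a unique molecular identifier (UMI). A barcode was a member if it held 1000 to 18000 UMIs, 200 to 4000 genes and less than 5% mitochondrial UMIs. It also needed at least 8 UMIs summed over the 8 mitotic genes Ube2c, Cenpf, Top2a, Prc1, Nusap1, Aurka, Cdc20 and Ccnb2, Olfm4 at 0.2% of its UMIs or more, and the goblet genes Muc2, Zg16, Clca1 and Fcgbp together under 1% of its UMIs. Of 25204 barcodes inside the limits on UMIs, genes and mitochondrial UMIs in the 4 Lgr5+ libraries, 2615 were members. The 8 single-cell RNA libraries of the study held 42869 such barcodes. Lgr5+WT gave 802 and 818 members by library, and Lgr5+Setdb1KO 236 and 759. The members were chosen by measured levels of the mitotic genes, Olfm4 and the goblet genes, so those levels are given as a description without a test.

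The Lgr5+WT mice carried the Lgr5-GFP-CreERT2 knock-in, in which the Lgr5 locus drives GFP and a tamoxifen-activated Cre recombinase. The Lgr5+Setdb1KO mice carried Lgr5-GFP-CreERT2 and Setdb1lox/lox, whose floxed exon Cre removes, so that Setdb1 is lost in cells that expressed Lgr5 and in their progeny. All mice were males of C57Bl6-based lines, 60 to 65 days old. All, the wild-type mice included, received intraperitoneal tamoxifen at 70 mg/kg and were analysed 5 days later. The study describes back-crossing to C57Bl6 for the Setdb1lox/lox line, and the part of strain background in the genotype differences was not tested. GFP+ cells were sorted from ileal crypts, and each genotype had 2 libraries, described by the study as biological replicates. The knock-in is silenced in a mosaic way, so only part of the crypts carry labelled cells. Libraries with the additional nTnG reporter, WT nTnG and Setdb1KO nTnG, hold GFP-labelled cells and their progeny and were used only as a second set of dividing cells. P-values compare the groups with libraries, not cells, as the replicates.

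In a dividing cell the cyclin-dependent kinase Cdk1 with cyclin B starts mitosis, the spindle and its kinesins attach to kinetochores and pull chromosomes apart, and the anaphase-promoting complex (APC/C), with its activator Cdc20 and its ubiquitin-conjugating enzyme Ube2c, destroys cyclin B and securin to end it. Genes of this programme are repressed in resting cells by the DREAM complex and switched on by B-Myb and Foxm1, often through a CHR element and CCAAT boxes that bind NF-Y. In the small intestine the Lgr5+ stem cells at the crypt base divide, and their daughters keep dividing as they move up and lose Lgr5 and Olfm4. Setdb1 is a methyltransferase for lysine 9 of histone H3 and silences genes and retroelements. MHC class II molecules present peptides to CD4+ T cells and are also made by intestinal epithelium.

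Promoters of 3 of the mitotic genes that picked the cells, and of 2 MHC class II genes that differed between genotypes, are shown because the first belong to the programme the cells run and the second to the genes that fell. The 200 bases before each start are from RefSeq on GRCm38.p6, written 5′ to 3′ on the strand of the gene, with capitals marking the CHR core TTTGAA or its reverse TTCAAA and the CCAAT box or its reverse ATTGG. The windows are chr2:164769729-164769928 (+) for Ube2c, chr4:118437344-118437543 (-) for Cdc20, chr9:70421555-70421754 (-) for Ccnb2, chr17:34305667-34305866 (+) for H2-Eb1 and chr17:34287824-34288023 (-) for H2-Aa.
Ube2c: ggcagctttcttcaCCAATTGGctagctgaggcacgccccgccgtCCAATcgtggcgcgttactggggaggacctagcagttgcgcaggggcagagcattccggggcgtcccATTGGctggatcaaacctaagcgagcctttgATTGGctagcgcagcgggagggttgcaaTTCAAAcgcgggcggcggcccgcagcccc
Cdc20: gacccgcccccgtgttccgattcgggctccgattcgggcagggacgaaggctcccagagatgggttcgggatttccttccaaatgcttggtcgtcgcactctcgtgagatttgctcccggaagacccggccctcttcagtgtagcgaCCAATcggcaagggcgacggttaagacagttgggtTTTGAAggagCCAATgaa
Ccnb2: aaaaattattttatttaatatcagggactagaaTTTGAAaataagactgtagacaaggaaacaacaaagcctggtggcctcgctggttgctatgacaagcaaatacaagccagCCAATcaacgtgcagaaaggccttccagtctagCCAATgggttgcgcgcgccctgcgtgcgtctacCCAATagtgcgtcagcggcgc
H2-Eb1: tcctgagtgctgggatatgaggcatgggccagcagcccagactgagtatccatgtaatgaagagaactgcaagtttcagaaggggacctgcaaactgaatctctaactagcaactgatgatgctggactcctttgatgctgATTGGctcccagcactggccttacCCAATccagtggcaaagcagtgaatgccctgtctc
H2-Aa: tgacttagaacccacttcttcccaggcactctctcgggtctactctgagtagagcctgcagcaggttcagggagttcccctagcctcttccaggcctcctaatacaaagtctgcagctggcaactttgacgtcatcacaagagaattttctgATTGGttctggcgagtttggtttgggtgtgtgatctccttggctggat

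The Ube2c window held 1 CHR core and 5 CCAAT letters in either direction, of which the run CCAATTGG counts as 2 because it reads as both. Cdc20 and Ccnb2 each held 1 CHR core, with 2 and 3 CCAAT boxes. H2-Eb1 and H2-Aa held no CHR core, with 2 and 1 CCAAT boxes. Over windows from 250 bases before to 50 bases after the start, 7 of the 8 mitotic genes held both motifs, against 8.97% of all 27025 RefSeq genes with a window. The CHR core was found in 21 of 26 spindle and kinesin genes with a window (80.8%) and in 20.2% of all genes. The other division lists ranged widely, from 4 of 38 DNA replication and 3 of 17 APC/C genes, both shares below that of all genes, through 42.9% in cyclins and in kinetochore genes and 46.2% in DREAM genes to 66.7% in condensins. Of the genes tested in the members 14.6% held the core, below the 17.6% of the APC/C genes. All 5 MHC class II genes with a window held a CCAAT box, which 41.1% of all genes held. These are matches of letters in a window.

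The Lgr5+ libraries held 50722926 to 81876035 UMIs over all barcodes. Median UMIs per member were 9844 and 8098.5 in Lgr5+WT against 12396.5 and 6276 in Lgr5+Setdb1KO, so Lgr5+Setdb1KO replicate 1 was the deepest and replicate 2 the shallowest. A doublet caller marked 9 and 36 of the Lgr5+WT members and 1 and 68 of the Lgr5+Setdb1KO members. Any pair of Lgr5+ libraries shared 3 to 24 barcode sequences inside the limits, and no member barcode was shared. The upper limits left out 84 and 41 barcodes in Lgr5+WT and 53 and 9 in Lgr5+Setdb1KO that met every other criterion.

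All 6 markers given for these cells had UMIs in them, which the rule itself required of the group, and all 6 epithelial markers, Epcam and Krt8 among them, were present at a summed 5239 to 6213 CPM (UMIs per 1000000 UMIs of the summed members). Lgr5, the receptor for R-spondin that defines the stem cells and was not part of the rule, stood at 29.0 and 21.8 CPM in Lgr5+WT against 22.4 and 18.2 CPM in Lgr5+Setdb1KO. In dividing cells with Olfm4 below 0.2% it stood at 1.97 to 2.33 CPM, and in Olfm4-high cells with 0 or 1 mitotic UMIs at 28.5 to 56.3 CPM. Lgr5 was thus higher than in the other dividing cells and lower than in the non-dividing Olfm4-high cells in each of the 4 libraries. The GFP feature had only 6 and 9 UMIs in Lgr5+WT members and 0 and 5 in Lgr5+Setdb1KO members, so the sort cannot be checked from it.

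Ube2c, which hands ubiquitin to APC/C, was measured at 1061 and 979 CPM in Lgr5+WT against 912 and 1049 CPM in Lgr5+Setdb1KO. Top2a, which untangles sister chromatids, was at 436 and 384 CPM in Lgr5+WT against 350 and 371 CPM in Lgr5+Setdb1KO. The centromere protein Cenpf ranged from 189.8 to 271 CPM, the spindle midzone protein Prc1 from 144 to 206 CPM, Nusap1 from 166 to 212 CPM, the mitotic kinase Aurka from 95.9 to 105 CPM, Cdc20 from 142 to 172 CPM and cyclin B2 (Ccnb2) from 202 to 232 CPM. Within each of these 8 genes the libraries lay close together, with Lgr5+Setdb1KO replicate 1 lowest in 7 of them. Mki67, the proliferation antigen outside the rule, was at 144 and 97.4 CPM in Lgr5+WT against 128 and 115 CPM in Lgr5+Setdb1KO, and the genotypes overlapped. Foxm1 was at 12.4 to 15.6 CPM and Mybl2, which encodes B-Myb, at 5.16 to 8.16 CPM.

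Members just inside the mitotic threshold, with exactly 8 UMIs, numbered 31 and 52 in Lgr5+WT and 11 and 53 in Lgr5+Setdb1KO, and barcodes with 7 that met the rest of the rule numbered 54 and 52, and 25 and 57. Olfm4 lay between 0.20 and 0.25% of UMIs in 56 and 85 Lgr5+WT members and 36 and 147 Lgr5+Setdb1KO members. Barcodes just below, at 0.15 to 0.20%, numbered 61 and 86 in Lgr5+WT and 41 and 160 in Lgr5+Setdb1KO. The members' median Olfm4 level was 0.534 and 0.456% in Lgr5+WT and 0.371 and 0.353% in Lgr5+Setdb1KO, so a larger part of the Lgr5+Setdb1KO members sat near the threshold.

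The members were not uniform along Olfm4. From the lowest (0.2 to 0.3%) through the middle (0.3 to 0.5%) to the highest Olfm4 class, Lgr5 was 10.1, 19.7 and 40.2 CPM in Lgr5+WT replicate 1, 9.64, 15.0 and 34.3 CPM in Lgr5+WT replicate 2, 11.2, 24.3 and 32.9 CPM in Lgr5+Setdb1KO replicate 1 and 11.4, 18.2 and 32.1 CPM in Lgr5+Setdb1KO replicate 2. Lgr5 rose with the Olfm4 class in each of the 4 libraries. Cd74, the invariant chain of MHC class II, did so too, and went from 1641 to 2766 CPM in Lgr5+WT replicate 1 and from 138 to 502 CPM in Lgr5+Setdb1KO replicate 1. Fabp1, the fatty acid binding protein of enterocytes, ran the other way in all 4 libraries, from 285 to 67.9 CPM in Lgr5+WT replicate 2 and from 489 to 222 CPM in Lgr5+Setdb1KO replicate 1. Atoh1, the master factor of secretory cells, and Rbp7 were lower in each higher class in 3 of 4 libraries, the exception being Lgr5+Setdb1KO replicate 1. These are orders within the gene whose level picked the cells and carry no test.

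**Figure D1:**
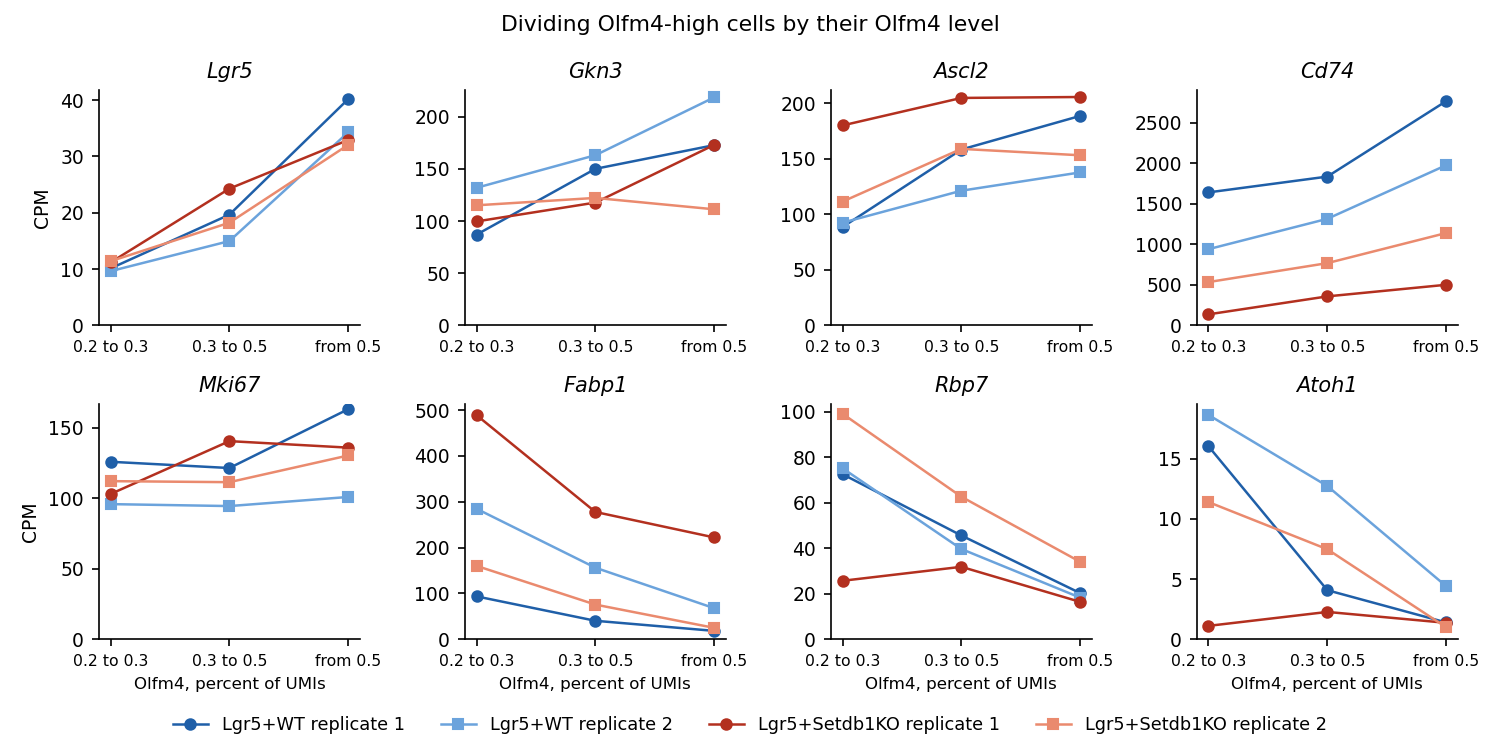
CPM of 8 genes (y axes) in dividing Olfm4-high cells split into 3 classes by the percent of UMIs that are Olfm4 (x axes), 1 line per Lgr5+ library. Lgr5 and Cd74 climb and Fabp1 drops from the lowest to the highest class in all 4 libraries, with Lgr5 between 9.64 and 11.4 CPM in the lowest class.

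The members were set beside 3265 dividing Olfm4-low cells, which met the same rule except that Olfm4 was under 0.2% of UMIs. The classes were made from these same counts, so the folds are a description, each computed with 10 CPM added and taken as the smallest over the 4 libraries. Ascl2, a transcription factor of Lgr5+ stem cells, was at least 3.22 times higher, at 122 to 198 CPM in the dividing Olfm4-high cells and 19.7 to 52.0 CPM in the Olfm4-low cells. Of further crypt base genes, the insulin-like growth factor binding protein Igfbp4 was at 67.9 to 94.2 CPM in the dividing Olfm4-high cells and 17.5 to 25.5 CPM, Gkn3 at 117 to 179 CPM in the dividing Olfm4-high cells and 30.1 to 44.2 CPM and the Na-K-Cl cotransporter Slc12a2 at 196 to 261 CPM in the dividing Olfm4-high cells and 77.7 to 88.7 CPM in the Olfm4-low cells. The interferon-induced membrane protein Ifitm3 was at 728 to 1266 CPM in the dividing Olfm4-high cells and 249.5 to 349 CPM. The list of the 10 highest also held Tubb2b, Rgcc, Clca3b, Jaml and 2210407C18Rik, with smallest folds of 2.16 to 2.95.

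The 10 genes most strongly lower in the members include absorptive and secretory products. The mitochondrial arginase Arg2 was at 25.8 to 44.1 CPM in the dividing Olfm4-high cells and 193 to 278 CPM in the Olfm4-low cells. The retinol binding proteins Rbp7 and Rbp2 were at least 3.83 and 3.71 times lower. Fabp1 was at 36.6 to 328 CPM in the dividing Olfm4-high cells and 278 to 1554 CPM, and Fabp6, the ileal bile acid binding protein, at 13.9 to 31.9 CPM in the dividing Olfm4-high cells and 77.8 to 167 CPM. Among secretory genes outside the rule, the goblet peptide Tff3 was at 157 to 428 CPM in the dividing Olfm4-high cells and 760.3 to 1139 CPM and the disulfide isomerase Agr2 at 99.3 to 537 CPM in the dividing Olfm4-high cells and 1089.9 to 1776 CPM. Dmbt1, Anxa13 and the antimicrobial lectin Reg3g completed the 10 lowest, with smallest folds of 2.66 to 3.32. Not all such genes were lower. The 15 secretory transcription factors summed to 206 to 238 CPM in the dividing Olfm4-high cells and 185 to 197.5 CPM in the Olfm4-low cells, and Sox4 and the Paneth defensin Defa21 were higher in the dividing Olfm4-high cells in each of the 4 libraries.

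Against 4776 non-dividing Olfm4-high cells, which held 0 or 1 UMIs of the 8 mitotic genes, most of the 10 highest genes, with the genes of the rule left aside, were of mitosis. Birc5, the survivin subunit of the chromosomal passenger complex, was at 439 to 495 CPM in the dividing Olfm4-high cells and 11.4 to 35.0 CPM in the non-dividing cells, and its partners Aurkb and Cdca8 were at least 7.33 and 7.14 times higher. Cenpa, the centromeric histone, was at 220 to 288 CPM in the dividing Olfm4-high cells and 6.92 to 17.5 CPM. Cdk1 was at 213 to 254 CPM in the dividing Olfm4-high cells and 23.3 to 28.1 CPM, with Ccnb1, Ccna2, Cdca3, Pbk and H2afx, the histone marked at DNA breaks, completing the list at smallest folds of 6.34 to 8.20. Lower genes differed less, the most by at least 1.73 times for the noncoding snoRNA host Zfas1. Mcm6, a subunit of the replicative helicase, was at 36.7 to 44.6 CPM in the dividing Olfm4-high cells and 67.2 to 82.9 CPM, and the crypt base genes Gkn3 and Pdgfa were at 117 to 179 CPM in the dividing Olfm4-high cells and 197 to 337 CPM and 39.5 to 92.5 CPM in the dividing Olfm4-high cells and 101 to 177 CPM in the non-dividing cells. Aldoa, Snhg4, Gas6, 1110038B12Rik, Clca4b and Rnase4 were lower by at least 1.49 to 1.73 times.

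**Figure D2:**
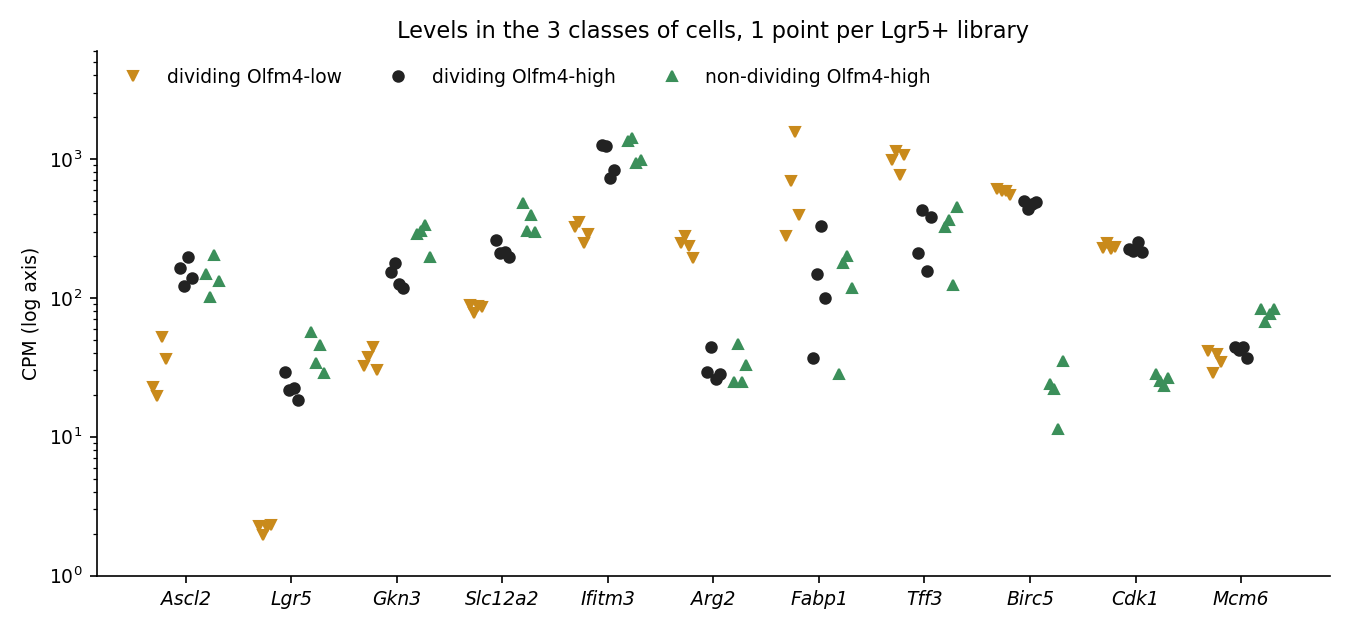
CPM (log y axis) of 11 genes in dividing Olfm4-low cells, dividing Olfm4-high cells and non-dividing Olfm4-high cells, 1 point per Lgr5+ library. The dividing Olfm4-high cells share Ascl2 with the non-dividing Olfm4-high cells and Birc5 (439 to 495 CPM) with the dividing Olfm4-low cells.

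Dividing Olfm4-high cells made up 16.8 and 13.3% in Lgr5+WT and 8.17 and 6.65% in Lgr5+Setdb1KO of the barcodes inside the limits, a mean of 15.1% ± 2.47 against 7.41% ± 1.08 (SD, n = 2 libraries each). The genotypes did not overlap, and the exact two-sided permutation p was 0.33, the smallest that 2 libraries against 2 allow. Since deep cells pass a floor of 8 UMIs more easily, cells were also thinned to 4000 UMIs each with a floor of 5 mitotic UMIs, which gave 16.6 and 15.4% in Lgr5+WT and 7.03 and 10.3% in Lgr5+Setdb1KO. This left out 490 and 1157 shallower barcodes in Lgr5+WT and 202 and 4170 in Lgr5+Setdb1KO, so Lgr5+Setdb1KO replicate 2 lost the largest part, 36.5%. Dividing cells of any Olfm4 level were 28.4 and 24.1% in Lgr5+WT and 22.5 and 21.0% in Lgr5+Setdb1KO, but 26.8 and 27.0% in Lgr5+WT and 18.5 and 31.0% in Lgr5+Setdb1KO after thinning, where the genotypes overlapped (exact permutation p = 1.00). Among dividing cells the Olfm4-high part, which restates the Olfm4 level that the rule used and so has no test, was 59.3 and 55.2% in Lgr5+WT and 36.3 and 31.7% in Lgr5+Setdb1KO, and 62.1 and 57.0% in Lgr5+WT and 38.0 and 33.1% in Lgr5+Setdb1KO after thinning. The median Olfm4 level of all dividing cells was 0.320 and 0.247% in Lgr5+WT and 0.107 and 0.0855% in Lgr5+Setdb1KO. Both values of that part lay lower in Lgr5+Setdb1KO at either depth, while the share of dividing cells as a whole depended on depth. All shares are of barcodes from the GFP+ sort, whose enrichment for Lgr5+ GFP+ cells the study calls incomplete. Whether every counted cell of Lgr5+Setdb1KO had lost Setdb1 was not tested. The rule's Olfm4 and mitotic floors make them counts of those levels as much as of cells, and their p-values give no support apart from the rule.

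**Figure D3:**
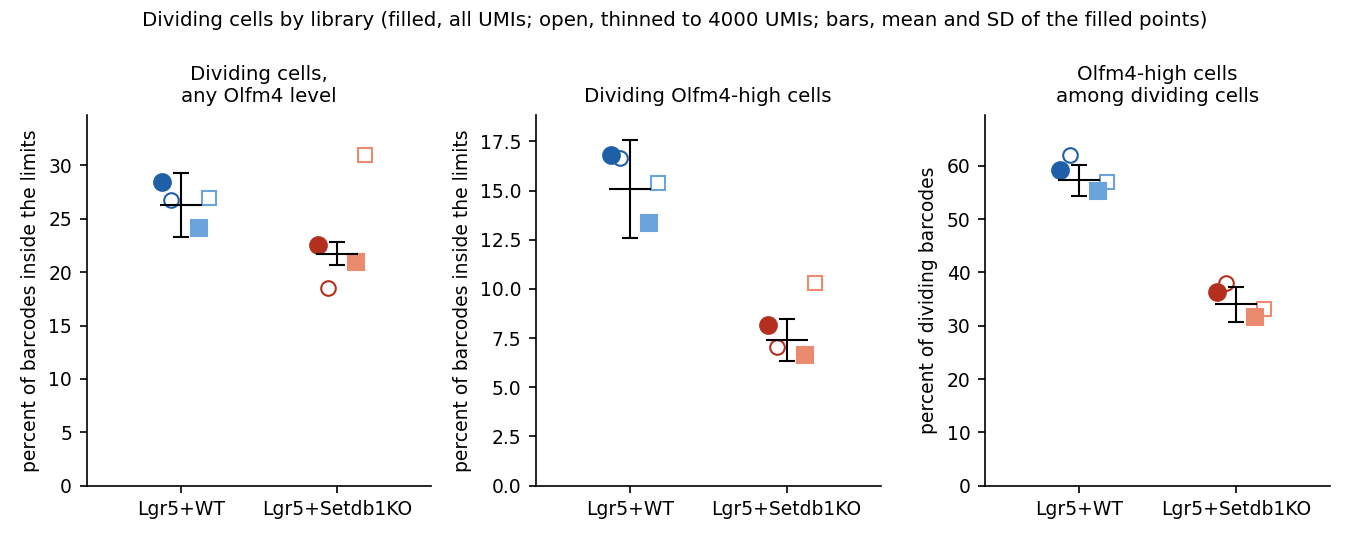
Percent of barcodes (y axes) that are dividing at any Olfm4 level (left), dividing and Olfm4-high (middle), and Olfm4-high among dividing ones (right) by genotype (x axes), filled points for all UMIs, open points for cells thinned to 4000 UMIs, bars for mean and SD of 2 libraries. The genotypes are apart in the middle and right panels, where the right one shows 59.3 and 55.2% in Lgr5+WT and 36.3 and 31.7% in Lgr5+Setdb1KO.

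Setdb1 in the members was 12.9 and 11.6 CPM in Lgr5+WT against 4.08 and 7.18 CPM in Lgr5+Setdb1KO, from 105, 83, 12 and 37 UMIs. Both Lgr5+Setdb1KO libraries were lower than both Lgr5+WT libraries, but the difference did not pass the test over all genes (log2 fold change -1.02, SE 0.26, adjusted p = 0.215, edgeR quasi-likelihood with Benjamini-Hochberg adjustment). It passed without the filter on low counts, adjusted p = 0.00634, and with a replicate block, adjusted p = 0.0248. The deleted exon is near the 5′ end and the assay counts 3′ ends, so these values do not check the deletion.

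Comparing the genotypes within the members asks what differed with the loss of Setdb1 among cells picked by 1 rule. The highest Olfm4 class (0.5% of UMIs or more) held 55.2 and 45% of the members in Lgr5+WT against 25.8 and 23.2% in Lgr5+Setdb1KO, and its part in the differences was not tested beyond the values given for that class. UMIs were summed over the members of each library and 10526 genes were tested with edgeR. At an adjusted p under 0.05, 48 genes were called (0.456% of those tested), 30 higher (0.285%) and 18 lower (0.171%) in Lgr5+Setdb1KO, and the median log2 fold change of all tested genes was -0.01. Among the higher calls, Plscr2, Ifnk, Gatm, Bglap3, Rbakdn, Acaa1b and Gzma passed the filter on low counts through the Lgr5+Setdb1KO libraries alone. Gatm, for example, had 3 and 5 UMIs in Lgr5+WT against 10 and 26 in Lgr5+Setdb1KO. The calls of these genes, and their part in the count of higher genes, are therefore no support for a direction. Without a requirement for a test, 16.0% of tested genes were higher in both Lgr5+Setdb1KO libraries than in both Lgr5+WT libraries and 22.0% were lower in both. The count moved to 206 with a replicate block, 235 without the filter on low counts and 90 of 11634 (0.774%) in dividing cells of any Olfm4 level, 51 higher (0.438%) and 39 lower (0.335%). It was 134 without Lgr5+WT replicate 1 and 123 without Lgr5+WT replicate 2, and 74 without Lgr5+Setdb1KO replicate 2. The excess of higher over lower calls depended on the setting. It turned to 20 higher and 32 lower in equal numbers of cells thinned to 4000 UMIs, 52 and 82 without Lgr5+WT replicate 1, 110 and 125 without the filter, 17 and 20 with Olfm4 at 0.5% of UMIs or more and 32 and 35 with mitotic genes at 0.15% of UMIs or more. Where 1 library is left out, the lone library of its genotype is assumed to vary like the libraries of the other genotype.

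Of the MHC class II genes 4 of 7 tested were lower in the Lgr5+Setdb1KO members by edgeR, though none of the 4 by DESeq2. Cd74 stood at 2296 and 1506 CPM in Lgr5+WT against 327 and 749.5 CPM in Lgr5+Setdb1KO, and no library of one genotype reached into the other (log2 fold change -1.79, SE 0.30, adjusted p = 0.0282). H2-Aa, the class II alpha chain, was at 323 and 190.1 CPM in Lgr5+WT against 28.2 and 83.1 CPM in Lgr5+Setdb1KO (log2 fold change -2.12, SE 0.35, adjusted p = 0.0271). The beta chains H2-Ab1 and H2-Eb1 had 311 and 183 against 41.8 and 97.0 CPM and 345 and 196 against 46.9 and 106 CPM, with log2 fold changes of -1.77 and -1.76 (adjusted p = 0.0325 and 0.0347, edgeR). Thus 4 of the 7 tested genes of the list were called as lower and none as higher, beside 0.171% and 0.285% of all tested genes, with a list median of -1.76. The peptide loaders H2-DMa (95.7 and 70.2 against 15.3 and 42.3 CPM) and H2-DMb1 (49.9 and 35.4 against 7.48 and 21.9 CPM) did not pass the test at log2 fold changes of -1.43 and -1.40, and their libraries did not overlap. Ciita, the transactivator of the class, had 26 and 11 UMIs against 1 and 12 and overlapped. The class I heavy chain H2-D1, at 359.7 and 303 CPM in Lgr5+WT against 190.5 and 199 CPM in Lgr5+Setdb1KO, also fell (log2 fold change -0.75, SE 0.11, adjusted p = 0.0135).

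These class II calls depended on the tool and on the limits. With DESeq2 the adjusted p of H2-Aa, Cd74, H2-Ab1 and H2-Eb1 was 0.466, 0.383, 0.502 and 0.530, with log2 fold changes of -1.78 to -2.16. With wider upper limits on UMIs and genes Cd74, H2-Ab1 and H2-Eb1 were not called (adjusted p = 0.0532, 0.0595 and 0.0532, edgeR), at log2 fold changes of -1.75, -1.76 and -1.71. Nor were these 3 in dividing cells of any Olfm4 level (adjusted p = 0.0684, 0.0501 and 0.0508, edgeR), at -2.06, -1.98 and -2.09. In members with Olfm4 at 0.5% of UMIs or more all 4 were called, at log2 fold changes of -1.50 to -1.81. Without Lgr5+Setdb1KO replicate 1, the lowest library, H2-Ab1 and H2-Eb1 had log2 fold changes of -1.32 and -1.32 and were not called (adjusted p = 0.0506 and 0.0675, edgeR). Without Lgr5+Setdb1KO replicate 2 the log2 fold changes of H2-Aa, Cd74, H2-Ab1 and H2-Eb1 were -3.16, -2.51, -2.54 and -2.50, and all were called. The 2 Lgr5+WT libraries differed from each other too, as the values above show. In empty droplets of the same libraries, which sample free RNA, Cd74 was at 572 and 383 CPM in Lgr5+WT against 47.6 and 140.1 CPM in Lgr5+Setdb1KO, below the Lgr5+WT members and in the same order of genotypes. The part of free RNA in the difference was not tested. In the same libraries Cd74 had log2 fold changes of -1.91 in dividing Olfm4-low and -1.56 in non-dividing Olfm4-high cells, neither past the test (adjusted p = 0.180 and 0.0695, edgeR), and these cells come from the same libraries as the members. Over all genes, the comparison called 47 of 10450 (0.45%) in the Olfm4-low cells, 27 higher (0.258%) and 20 lower (0.191%). It called 28 of 10789 (0.26%) in the non-dividing cells, 19 higher (0.176%) and 9 lower (0.0834%).

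**Figure D4:**
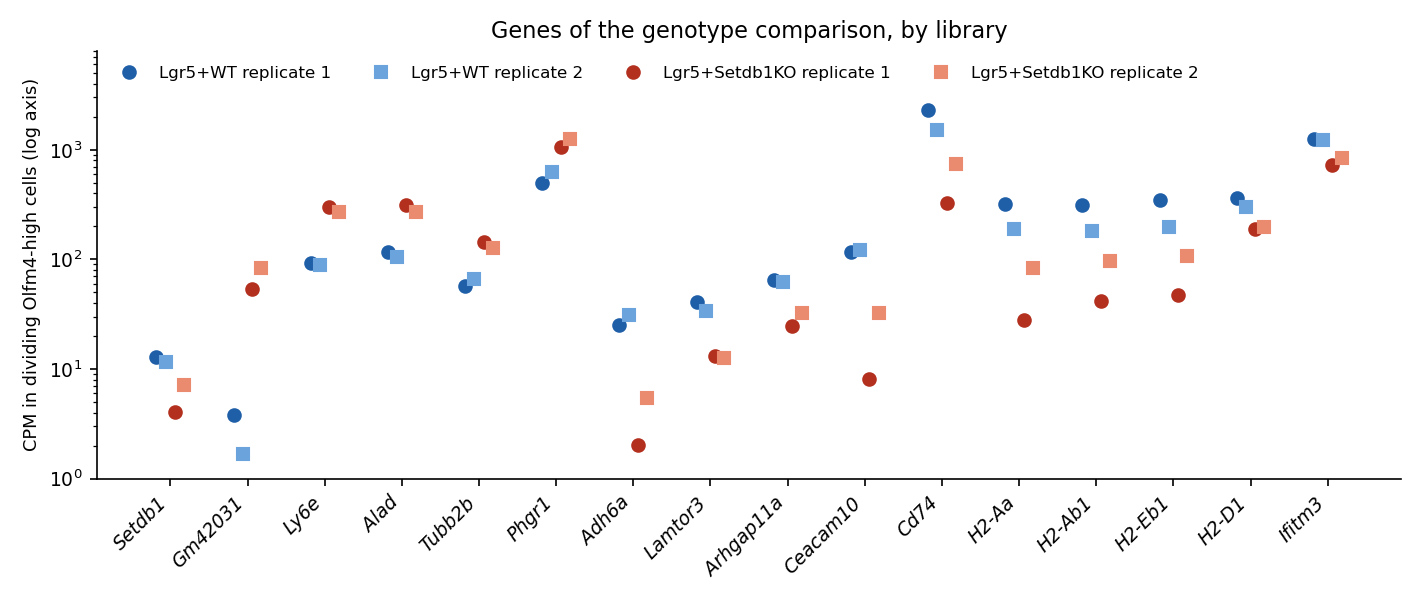
CPM (log y axis) of 16 genes in dividing Olfm4-high cells, 1 point per Lgr5+ library. The 4 called MHC class II genes, H2-D1 and Ifitm3 are lower and Ly6e (92.2 and 88.3 against 303 and 269 CPM) is higher in both Lgr5+Setdb1KO libraries, while Setdb1 is lower in both without passing the test.

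Of the genes that rose, Gm42031, a predicted gene, had the smallest adjusted p, at 3.80 and 1.67 CPM in Lgr5+WT against 54.1 and 83.1 CPM in Lgr5+Setdb1KO (log2 fold change 4.65, SE 0.29, adjusted p = 7.75e-05). Its log2 fold change was 5.32 without Lgr5+WT replicate 1. Ly6e, a GPI-anchored surface protein of the Ly6 family, was at 92.2 and 88.3 CPM in Lgr5+WT against 303 and 269 CPM in Lgr5+Setdb1KO (log2 fold change 1.68, SE 0.11, adjusted p = 9.65e-05). Alad, the enzyme that makes porphobilinogen in heme synthesis, was at 117 and 104 CPM in Lgr5+WT against 312 and 271 CPM in Lgr5+Setdb1KO (log2 fold change 1.41, SE 0.12, adjusted p = 0.000433). In these 3 genes each Lgr5+Setdb1KO library was more than 2 times either Lgr5+WT library. Mogat2, a monoacylglycerol acyltransferase of fat absorption, was at 4.04 and 4.46 CPM in Lgr5+WT against 15.3 and 17.1 CPM in Lgr5+Setdb1KO (log2 fold change 1.95, SE 0.23, adjusted p = 0.00425). Gm49980 and 1500011B03Rik had 24.1 and 17.0 against 52.7 and 52.8 CPM and 9.68 and 8.79 against 24.1 and 34.7 CPM, with adjusted p of 0.00394 and 0.00425 (edgeR).

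Some risen genes have near-identical relatives that 3′ counting may confuse, so their identity is uncertain. Plscr2, of the phospholipid scramblases, had 4 and 2 UMIs in Lgr5+WT and 33 and 96 in Lgr5+Setdb1KO, and passed the filter on low counts through the latter alone. Eif3j2, a copy of a translation initiation factor subunit, was at 2.94 and 2.37 CPM in Lgr5+WT against 15.6 and 13.4 CPM in Lgr5+Setdb1KO (log2 fold change 2.44, SE 0.27, adjusted p = 0.00316). The beta-tubulin Tubb2b, a building block of the spindle among other microtubules, was at 57.1 and 66.1 CPM in Lgr5+WT against 144 and 126 CPM in Lgr5+Setdb1KO (log2 fold change 1.14, SE 0.14, adjusted p = 0.00425), and its neighbour Tubb2a rose as well, with 25.2 and 24.5 against 60.5 and 46.0 CPM (adjusted p = 0.0128, edgeR). The Paneth cell alpha-defensin Defa21 was at 93.0 and 65.4 CPM in Lgr5+WT against 162 and 233 CPM in Lgr5+Setdb1KO (log2 fold change 1.35, SE 0.18, adjusted p = 0.0102). It was not called with wider upper limits (log2 fold change 1.80, adjusted p = 0.102, edgeR) or in dividing cells of any Olfm4 level (log2 fold change 1.54, adjusted p = 0.0515, edgeR). Empty droplets held Defa21 at 1576 and 1258 CPM in Lgr5+WT against 6258 and 6201 CPM in Lgr5+Setdb1KO, many times its level in the members and higher in the Lgr5+Setdb1KO libraries, and the part of free RNA was not tested.

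Further risen genes, chosen after their values were seen, include Phgr1, an epithelial gene at 502 and 621 CPM in Lgr5+WT against 1052 and 1262 CPM in Lgr5+Setdb1KO, and Rgcc, a cell cycle regulator at 83 and 53 CPM in Lgr5+WT against 153 and 134 CPM in Lgr5+Setdb1KO. Ifnk, an interferon, had no UMI in either Lgr5+WT library, against 6 and 9 in Lgr5+Setdb1KO. It passed the filter on low counts through the Lgr5+Setdb1KO libraries alone. The T cell genes Gzma and Ccl5 were called as higher, but a single barcode in each Lgr5+Setdb1KO library held nearly all of their UMIs. For Gzma that barcode held 95 of 96 UMIs in replicate 1 and 42 of 43 in replicate 2, and for Ccl5 62 of 62 and 28 of 31. With the highest cell of every gene left out of each library, Gzma, Ccl5 and Ifnk could not be tested, and 46 genes were called.

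Of the genes that fell, Adh6a, an alcohol dehydrogenase, was at 25.2 and 31.0 CPM in Lgr5+WT against 2.04 and 5.43 CPM in Lgr5+Setdb1KO (log2 fold change -2.75, SE 0.31, adjusted p = 0.00316). Lamtor3, a scaffold of the Ragulator complex on lysosomes, was at 41.2 and 33.8 CPM in Lgr5+WT against 13.3 and 12.6 CPM in Lgr5+Setdb1KO (log2 fold change -1.52, SE 0.16, adjusted p = 0.00316). Ceacam10, of the carcinoembryonic antigen family, was at 117 and 123 CPM in Lgr5+WT against 8.16 and 32.2 CPM in Lgr5+Setdb1KO (log2 fold change -2.43, SE 0.34, adjusted p = 0.0121). These genes were lower in both Lgr5+Setdb1KO libraries by a factor of more than 2. The surface glycoprotein Cd177 had 21.3 and 22.3 against 1.36 and 4.66 CPM and Cd14, the coreceptor for lipopolysaccharide, 36.0 and 28.6 against 6.12 and 11.6 CPM, with adjusted p of 0.00425 and 0.0102 (edgeR). Dus2, which makes dihydrouridine in tRNA, was at 35.4 and 29.7 CPM in Lgr5+WT against 7.48 and 14.0 CPM in Lgr5+Setdb1KO (log2 fold change -1.51, SE 0.23, adjusted p = 0.0150). Slc24a5, a cation exchanger, was at 18.4 and 16.7 CPM in Lgr5+WT against 5.78 and 7.18 CPM in Lgr5+Setdb1KO (log2 fold change -1.39, SE 0.22, adjusted p = 0.0176). Dus2 was not called in members with Olfm4 at 0.5% of UMIs or more (log2 fold change -1.37, adjusted p = 0.0720, edgeR). In those members the log2 fold change was larger in size for Adh6a (-4.02) and Slc24a5 (-2.44) and smaller for Ceacam10 (-1.94). Slc24a5 was not called without Lgr5+Setdb1KO replicate 1 (log2 fold change -1.27, adjusted p = 0.0553, edgeR), and Ceacam10 was not called with DESeq2 (log2 fold change -2.54, adjusted p = 0.404). Sizes differed with the Lgr5+Setdb1KO library left out. Without replicate 1 or 2, the log2 fold change was -1.87 or -3.86 for Ceacam10, -2.35 or -3.76 for Adh6a, -2.20 or -3.97 for Cd177, -1.45 or -2.38 for Cd14 and -1.20 or -2.10 for Dus2.

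Arhgap11a, a GTPase-activating protein expressed in dividing cells, was the only gene with a role in cell division among the 10 named as lower, at 64.3 and 61.6 CPM in Lgr5+WT against 24.5 and 32.6 CPM in Lgr5+Setdb1KO (log2 fold change -1.10, SE 0.15, adjusted p = 0.0118). In dividing Olfm4-low cells of the same libraries its log2 fold change was -1.24 (adjusted p = 0.00578, edgeR). In the non-dividing Olfm4-high cells it was -0.96, which did not pass (adjusted p = 0.155, edgeR). Also fallen, and chosen after their values were seen, were Ifitm3 (1266 and 1239 against 728 and 837 CPM), the transmembrane mucin Muc13 (237 and 251 against 131 and 149 CPM) and 2210407C18Rik (343 and 326 against 173 and 167 CPM).

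No gene of the division machinery, in 7 lists, passed the test. Cyclins and mitotic kinases (19 tested) had a median log2 fold change 0.04, range -0.31 to 0.29, with Cdk1 at 226 and 218 against 254 and 213 CPM and its adaptor Cks2 at 481 and 428 against 406 and 454 CPM. APC/C and its regulators (18 tested) had a median log2 fold change -0.03, range -0.54 to 0.33. In it the chain-elongating enzyme Ube2s stood at 653 and 643 against 639 and 616 CPM and the subunit Anapc13 at 253 and 261 against 227 and 264 CPM. Kinetochore and centromere genes (33 tested) had a median log2 fold change 0.05, range -0.50 to 0.24, with Cenpa at 288 and 264 against 220 and 282 CPM and the Ndc80 complex member Spc24 at 246 and 215 against 238 and 253 CPM. The libraries of the 2 genotypes overlapped in most of these named genes.

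Spindle and kinesin genes (30 tested) had a median log2 fold change -0.12, range -0.55 to 0.16, and 12 of them were lower in both Lgr5+Setdb1KO libraries and none higher, beside 22.0% and 16.0% of all tested genes. Birc5 was at 495 and 439 against 476 and 489 CPM and Cdca8 at 277 and 235 against 249.6 and 281 CPM. Condensins and chromosome structure (15 tested) had a median log2 fold change -0.05, range -0.39 to 0.22, with the histone variant H2afz at 2574 and 2356 against 2946 and 2692 CPM and the chromatin protein Hmgb2 at 1816 and 1627 against 1735 and 1777 CPM. DREAM and B-Myb regulators (17 tested) had a median log2 fold change 0.09, range -0.71 to 0.46, with the histone chaperone Rbbp4 at 104 and 83.1 against 96.9 and 90.6 CPM and the E2F partner Tfdp1 at 72.2 and 55.1 against 80.9 and 67.7 CPM. DNA replication genes (51 tested) had a median log2 fold change 0.05, range -0.27 to 0.53, with the PCNA partner Pclaf at 409 and 395 against 442 and 358 CPM and the nucleotide hydrolase Dut at 272 and 245 against 283 and 239.7 CPM. A miss of the test at 2 libraries a group, in cells picked by their mitotic UMIs, does not show equal levels.

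**Figure D5:**
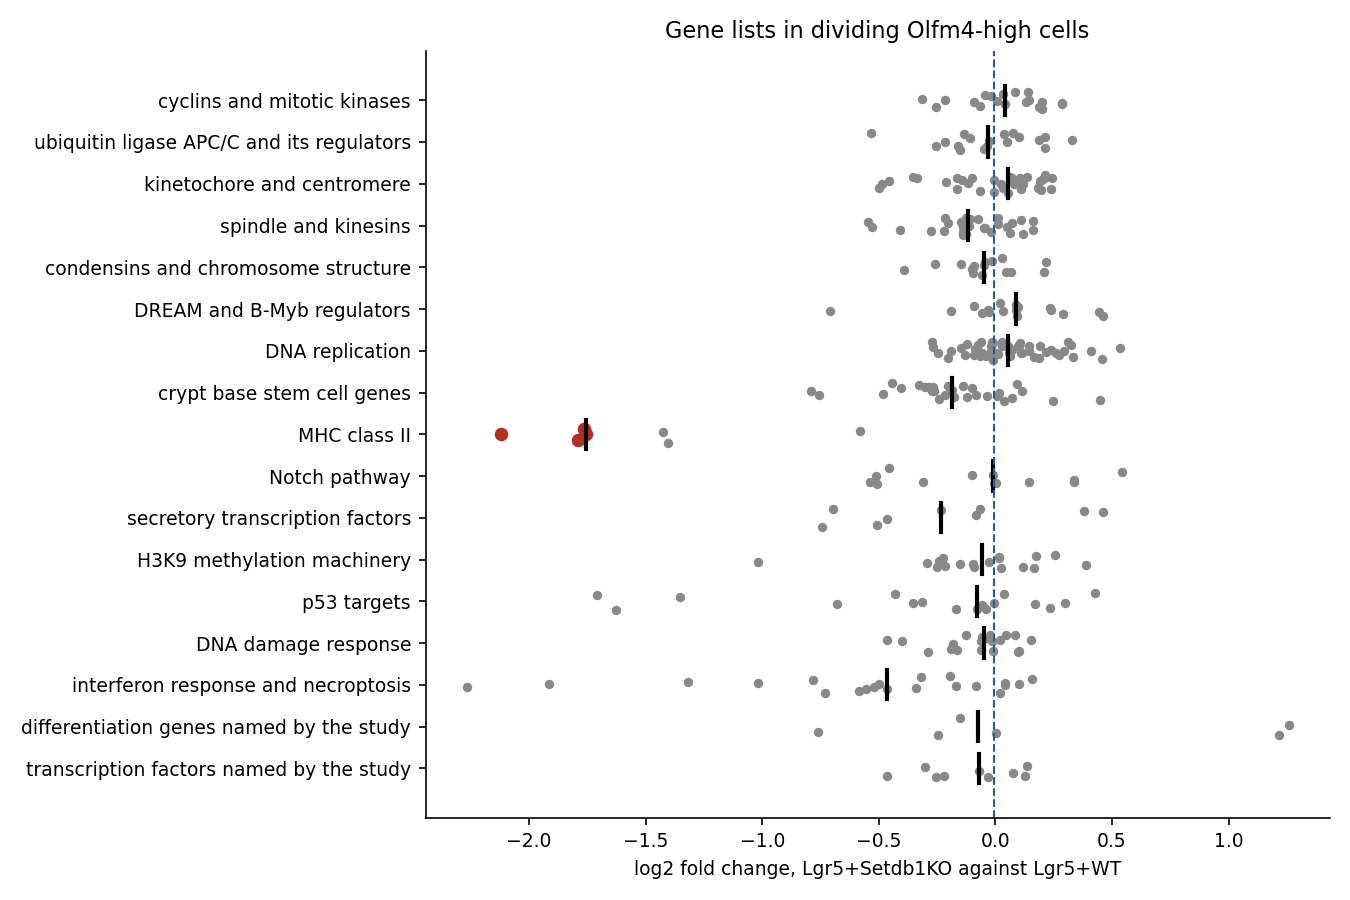
Log2 fold change, Lgr5+Setdb1KO against Lgr5+WT (x axis), of every tested gene of 17 gene lists (y axis) in dividing Olfm4-high cells, with called genes in red, others in grey, a black bar for the list's median and a dashed line for the median of all tested genes (-0.01). Red points are found in the MHC class II list, whose median is -1.76, and the division lists have medians from -0.12 to 0.09.

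None of the 29 crypt base stem cell genes passed the test (median log2 fold change -0.19, range -0.79 to 0.45), and 9 were lower in both Lgr5+Setdb1KO libraries and none higher, beside 22.0% and 16.0% of all tested genes. Lgr5 itself had a log2 fold change of -0.33 (SE 0.18, adjusted p = 0.656, edgeR), with overlapping libraries. Slc12a2 was at 261 and 209.6 against 213 and 196 CPM and the Myc target Cdca7 at 179 and 154 against 182 and 157 CPM. Olfm4 in the members, bounded from below by the rule, was 5515 and 4963 CPM in Lgr5+WT against 4062 and 3858 CPM in Lgr5+Setdb1KO. It was lower in both Lgr5+Setdb1KO libraries.

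Of 13 tested genes of the Notch pathway, which holds crypt base cells out of the secretory fate, none was called (median -0.01). The Notch target Hes1 was at 140.3 and 116 against 119.7 and 134 CPM, and Hes6, an antagonist of Hes1, at 123 and 89.7 against 171 and 136 CPM (log2 fold change 0.54, adjusted p = 0.242, edgeR). Hes6 was called as higher without the filter on low counts, with a replicate block and without Lgr5+WT replicate 1. Of 9 tested secretory transcription factors none was called (median -0.24), with Sox4 at 167 and 151 against 132 and 135 CPM and Foxa3 at 31.4 and 35.7 against 52.7 and 35.5 CPM. The 18 genes of H3K9 methylation, Setdb1 among them, had a median of -0.06 and no call. Their heterochromatin proteins Cbx3 and Cbx1 stood at 267 and 271 against 277 and 262 CPM and 166 and 159.8 against 153 and 173 CPM.

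Interferon response and necroptosis genes (21 tested) had no call but a median log2 fold change -0.46, range -2.27 to 0.16, and 12 were lower and 1 higher in both Lgr5+Setdb1KO libraries, beside 22.0% and 16.0% of all tested genes. The interferon regulatory factor Irf1 was at 55.8 and 46.3 CPM in Lgr5+WT against 28.6 and 31.8 CPM in Lgr5+Setdb1KO (log2 fold change -0.73, adjusted p = 0.0591, edgeR) and passed the test in 6 of the alternatives, among them without marked doublets. Ifi35 was at 42.0 and 34.4 against 37.8 and 39.8 CPM and the ubiquitin-like Isg15, chosen after its values were seen, at 12.1 and 6.69 against 2.04 and 2.72 CPM. Of 17 tested p53 targets and 20 DNA damage genes none was called (medians -0.08 and -0.05). Of the p53 targets (range -1.71 to 0.43) 7 were lower and 1 higher in both Lgr5+Setdb1KO libraries. Of the DNA damage genes (range -0.46 to 0.15) 3 were lower and 0 higher in both. The death effector Bax was at 125 and 144 against 118 and 138 CPM, Ei24 at 65.8 and 73.9 against 62.2 and 68.7 CPM, H2afx at 554 and 447 against 574 and 525 CPM and the checkpoint scaffold Topbp1 at 68.1 and 63.9 against 61.6 and 53.8 CPM.

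The study named differentiation genes and transcription factors from these samples, so those lists are not independent evidence of a direction. Of 15 such differentiation genes 6 had enough UMIs for a test and none was called (median -0.07). The libraries did not overlap in 2 of the 6, both higher in Lgr5+Setdb1KO, beside 16.0% of all tested genes higher and 22.0% lower. These were the retinol binding protein Rbp2 (23.0 and 61.2 against 66.7 and 131 CPM, log2 fold change 1.26, adjusted p = 0.355, edgeR) and the apolipoprotein Apoc3 (6.0 and 7.95 against 12.9 and 18.2 CPM, log2 fold change 1.22, adjusted p = 0.0910, edgeR). The goblet peptides Spink4 and Tff3 were at 596 and 1412 against 323 and 864 CPM and 211 and 428 against 157 and 379 CPM, and spread more within the genotypes than between them. Empty droplets held 6751 to 8194 CPM of Spink4 and 4599.9 to 6057 CPM of Tff3, above the members in every library. Spink4 was called as lower without the filter on low counts (log2 fold change -0.76, adjusted p = 3.22e-09, edgeR), with a replicate block (log2 fold change -0.78, adjusted p = 5.10e-06, edgeR) and without Lgr5+WT replicate 1 (log2 fold change -1.28, adjusted p = 5.44e-09, edgeR). Without Lgr5+WT replicate 2 its log2 fold change was 0.065 and not called. Tff3 was called as lower without Lgr5+WT replicate 1 (log2 fold change -0.70, adjusted p = 0.0208, edgeR) and had a log2 fold change of 0.42, not called, without Lgr5+WT replicate 2. Of 12 transcription factors 9 were tested and none was called (median -0.07), with the glucocorticoid receptor Nr3c1 at 77.3 and 63.3 against 47.6 and 63.7 CPM and Onecut2 at 45.7 and 58.6 against 42.5 and 46.0 CPM.

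Markers of other cells were summed over the members. Paneth markers (11 of 11 in the files with a UMI) came to 3133 and 4273 CPM in Lgr5+WT against 2711 and 4929.7 CPM in Lgr5+Setdb1KO, and in empty droplets of the same libraries to 53446 and 69084 CPM in Lgr5+WT against 105873 and 115094 CPM in Lgr5+Setdb1KO. Goblet markers outside the rule (10 of 10 with a UMI) came to 1214 and 2579 CPM in Lgr5+WT against 679.5 and 1808 CPM in Lgr5+Setdb1KO, and in empty droplets to 17101 to 19481 CPM. Enterocyte markers (16 of 16) came to 1608 to 2081 CPM, enteroendocrine markers (12 of 12) to 46.3 to 376 CPM and tuft markers (12 of 12) to 22.1 to 65.6 CPM. In these lists the genotypes overlapped, apart from enterocyte markers, which were a little higher in Lgr5+Setdb1KO. T cell markers (12 of 12) came to 2.94 and 2.93 CPM in Lgr5+WT against 63.6 and 19.8 CPM in Lgr5+Setdb1KO. They reached 5 UMIs in 0 and 1 members by library of Lgr5+WT, and in 1 and 1 of Lgr5+Setdb1KO. Of B and plasma cell markers Cd79a and Ms4a1 were at 0, and of 8 stromal markers 7 were at 0, Col1a1 and Pecam1 included.

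Whether a genotype difference in the members differed from that in another class was tested as an interaction, with library as a block. Against dividing Olfm4-low cells 46 of 10930 genes were called (0.421%), 19 with a higher (0.174%) and 27 with a lower change (0.247%) in the members. Olfm4, a gene of the rule, is among the 46, and its call is not read as a result. Without Lgr5+WT replicate 1 the count was 28. Without Lgr5+Setdb1KO replicate 2 it was 31 higher and 12 lower, and 15 of these 43 genes were among the 46. Ly6e was at 92.2 and 88.3 CPM in Lgr5+WT against 303 and 269 CPM in Lgr5+Setdb1KO, and at 125 and 112 against 237 and 212 CPM in the Olfm4-low cells (log2 difference 0.75, SE 0.09, adjusted p = 4.29e-08), so it differed more between the genotypes in the members than in the Olfm4-low cells. In the non-dividing Olfm4-high cells its log2 fold change was 1.48 (adjusted p = 0.00064, edgeR), and there the difference from the members did not pass (log2 difference 0.17, adjusted p = 0.999, edgeR). Phgr1 was at 502 and 621 against 1052 and 1262 CPM in the members and 1198 and 1312 against 1715 and 1872 CPM in the Olfm4-low cells (log2 difference 0.55, SE 0.06, adjusted p = 4.29e-08). The crypt base factor Ascl2, chosen after its values were seen, differed by genotype less in the members, with 164 and 122 against 198 and 139 CPM in them and 22.7 and 19.7 against 52.0 and 36.3 CPM in the Olfm4-low cells (log2 difference -0.80, SE 0.12, adjusted p = 2.94e-05). The classes are cut at 0.2% Olfm4, and the Olfm4 level of dividing cells was itself lower in Lgr5+Setdb1KO. The part of that cut in the Ascl2 difference was not tested.

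The Paneth marker Gm14851 was at 326 and 320.2 CPM in Lgr5+WT against 225 and 516 CPM in Lgr5+Setdb1KO, and at 119 and 247 against 193 and 1464 CPM in the Olfm4-low cells, where Lgr5+Setdb1KO replicate 2 stood far above the others (log2 difference -1.64, SE 0.21, adjusted p = 4.93e-07). Without that library the log2 difference was -0.61 and not called. Gzma and Ccl5 were also called in this comparison (log2 difference 9.54, SE 0.47, adjusted p = 1.67e-23, and log2 difference 10.45, SE 0.60, adjusted p = 9.06e-21), and rest in the members on the single barcodes described above. With the highest cell of each gene left out of each library and class, 49 genes were called. None of the 4 class II genes that fell was called against either class.

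Against non-dividing Olfm4-high cells 4 of 11136 genes were called (0.0359%), 1 with a higher (0.00898%) and 3 with a lower change (0.0269%) in the members. The count was 27 and 20 without Lgr5+WT replicate 1 or 2 and 32 and 48 without Lgr5+Setdb1KO replicate 1 or 2. The antimicrobial lectin Reg3g was at 118 and 269.9 CPM in Lgr5+WT against 27.2 and 94.3 CPM in Lgr5+Setdb1KO, and at 127 and 265 against 43.2 and 173 CPM in the non-dividing cells (log2 difference -0.85, SE 0.11, adjusted p = 0.00160). Reg3b, of the same family, was at 126 and 383 against 45.9 and 59.6 CPM and 135 and 378 against 52.3 and 246 CPM (log2 difference -1.49, SE 0.26, adjusted p = 0.0449). For both, Lgr5+Setdb1KO replicate 2 held more in the non-dividing cells than in the members, and without it neither was called (log2 differences -0.68 and -0.20). Fabp6 was at 31.9 and 19.1 against 13.9 and 16.1 CPM in the members and at 14.6 and 10.7 against 324 and 28.8 CPM in the non-dividing cells (log2 difference -3.94, SE 0.57, adjusted p = 0.00358), and was not called without the highest cells, at a log2 difference of -1.68. The hormone gene Gip had a log2 difference 2.25, SE 0.31, adjusted p = 0.00293, which was -0.55 without the highest cells and 0.69, not called, without Lgr5+Setdb1KO replicate 2, where 1 cell held 92.7% of the UMIs of the gene.

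In the lineage-traced libraries, which the rule did not use, the same rule left 15 and 2 barcodes in WT nTnG and 16 and 24 in Setdb1KO nTnG, where 20 per library were asked for a test, so no genotype test of such members was run. Dividing cells of any Olfm4 level numbered 232 and 69 in WT nTnG and 171 and 784 in Setdb1KO nTnG, and in them 132 of 6791 genes were called (1.94%), 17 higher (0.25%) and 115 lower (1.69%). The count was 77 and 84 without WT nTnG replicate 1 or 2. Of the 48 genes called in the Lgr5+ members, 46 were tested in the non-dividing Olfm4-high cells of the same libraries. All 46 had the same direction and 22 were called, where 0.26% of all genes were called. In the dividing Olfm4-low cells 46 were tested, 44 had the same direction and 25 were called, where 0.45% of all genes were called. The 48 genes were picked in these same libraries, so any difference between libraries recurs in both classes. Their agreement there is a description and no separate support. In the lineage-traced dividing cells 36 of the 48 were tested, 25 with the same direction, and 6 were called in it. Gm42031 was at 16.3 and 16.1 CPM in WT nTnG against 103 and 82.9 CPM in Setdb1KO nTnG (log2 fold change 2.41, adjusted p = 1.24e-06). Eif3j2, Phgr1, Adh6a, 2210407C18Rik and Slc24a5 were the others, Slc24a5 at 45.6 and 113 CPM in WT nTnG against 2.73 and 0.468 CPM in Setdb1KO nTnG. Defa21 ran the opposite way, at 3527 and 6188 CPM in WT nTnG against 2043 and 714 CPM in Setdb1KO nTnG (log2 fold change -1.92, adjusted p = 1.11e-06).

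Of the 6 MHC class II genes tested in those cells none was called (median -0.62), with Cd74 at 589.9 and 769 CPM in WT nTnG against 369.8 and 517 CPM in Setdb1KO nTnG (log2 fold change -0.68, adjusted p = 0.539). Ly6e, among the clearest differences in the Lgr5+ members, was at 50.7 and 66.5 CPM in WT nTnG against 29.1 and 40.0 CPM in Setdb1KO nTnG (log2 fold change -0.76, adjusted p = 0.547). Setdb1, counted at its 3′ end, was at 8.60 and 8.06 CPM in WT nTnG against 14.5 and 10.8 CPM in Setdb1KO nTnG there (log2 fold change 0.44, SE 0.52, adjusted p = 0.994, edgeR), not lower in the libraries labelled Setdb1KO nTnG. The WT nTnG cells held only 1162821 and 496452 UMIs of all genes, so few were of Setdb1. These values do not check the deletion, which the study reported by PCR in sorted cells of these lines. The 7 division lists again had no call, with medians of -0.01 to 0.30, in cells picked by the same floor of mitotic UMIs. Of the differentiation genes that the study named from the Lgr5+ samples, 5 of 7 tested were called as lower, beside 1.69% of all genes tested there.

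DNA replication genes, which peak before mitosis, held 0.338 and 0.302% in Lgr5+WT and 0.374 and 0.291% in Lgr5+Setdb1KO of the members' UMIs, and the genotypes overlapped (exact permutation p = 1.00). Variability between members was compared in 236 cells of each library, thinned to 4000 UMIs. The excess of a gene's variance over counting noise, divided by its squared mean, had a median over 1981 genes of 0.0513 and 0.0418 in Lgr5+WT and 0.0384 and 0.0343 in Lgr5+Setdb1KO (exact permutation p = 0.33, the smallest possible). Without marked doublets the genotypes overlapped (exact permutation p = 0.67). Ordered by the smallest excess over the 4 libraries, the first genes were the goblet peptides Spink4 and Tff3, then the Paneth defensin Defa24, the linker histone Hist1h1b and 2210407C18Rik. Hist1h1e, Cd74, Defa30, Id1 and Cd24a followed. The leading variable genes thus include secretory products, linker histones made in S phase and an MHC class II gene. Spink4 and Tff3 were higher in empty droplets than in the members, as given above. Defa30 had an excess of 38.1 in Lgr5+WT replicate 1 and 0.48 in Lgr5+WT replicate 2. Over all members of Lgr5+WT replicate 1, 1 cell held 1084 of its 5299 UMIs. The parts of free RNA and of single cells in this order were not tested.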

How the data were processed

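Single-cell libraries (10x 3′ chemistry) were made from 2 Lgr5+WT and 2 Lgr5+Setdb1KO samples, with 4 lineage-traced libraries beside them. The authors deposited unfiltered UMI counts per gene and barcode, made with Cell Ranger 6.1.1 on mm10 according to the submitters' processing notes, and values were checked to be whole. Total RNA-seq, scATAC-seq and H3K9me3 data were not used here. The labels' growth protocol names livers, whereas the tissue label and isolation protocol give intestine.

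Members and gene lists were chosen with earlier results of these data known. UMIs were summed per library and class (CPM are per 1000000 summed UMIs) and tested with edgeR 4.0.16 (filterByExpr, TMM, quasi-likelihood, Benjamini-Hochberg at 0.05, genotype only, or class by genotype with library as a block), with DESeq2 1.42.0 as an alternative. Fold changes use TMM, and CPM do not. Shares were compared by exact two-sided permutation over libraries. Doublets were marked by a rebuilt DoubletFinder procedure (pN 0.25, pK 0.09) and kept in the members. Empty droplets are barcodes of rank 20001 to 60000. Genes named were the genes of the rule, Setdb1, Lgr5, Mki67, Mybl2 and Foxm1, the 10 called genes each way with the smallest adjusted p and a log2 fold change of 1 or more in size, up to 4 called or the 2 most abundant genes of each list, the 10 extreme genes of each class comparison with a mean of 50 CPM or more, and up to 5 genes of each interaction. On simulated counts for this genotype comparison (10526 genes), 88 of 100 genes changed 4-fold and 63 of 100 changed 2-fold were called, with 10 of 10326 unchanged genes. The simulation gave every gene the same dispersion, so these rates need not hold for genes whose libraries spread more. Alternatives of scaling, filter, tool, limits, thinning and libraries were run. Those for dividing cells of any Olfm4 level, the lineage-traced dividing cells, the share among dividing cells and the highest cells were chosen after seeing the data.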

Additional observations from a re-analysis of the deposited data

Results flagged for a closer look

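Groups of 2 libraries are too small for a check of outlying samples, so the results below were picked because the genotype difference in the dividing Olfm4-high cells itself differed from that in another class of the same libraries, by the edgeR interaction test. Against dividing Olfm4-low cells, the log2 difference of the genotype effects was 9.54 for Gzma and 10.45 for Ccl5, T cell genes carried by single barcodes in each Lgr5+Setdb1KO library. It was 0.55 for Phgr1 and 0.75 for Ly6e, both higher in Lgr5+Setdb1KO by more in the dividing Olfm4-high cells. It was -1.64 for the Paneth marker Gm14851, and -0.61 and not called without Lgr5+Setdb1KO replicate 2.

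Against non-dividing Olfm4-high cells, the log2 difference was -0.85 for Reg3g and -1.49 for Reg3b, which were -0.68 and -0.20 and not called without Lgr5+Setdb1KO replicate 2. It was 2.25 for Gip, where 1 cell held most UMIs of a library, and -3.94 for Fabp6, where it was -1.68 and not called without the highest cells.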

How the results depend on the processing

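The count of 48 called genes was 48 with RLE size factors, 55 with DESeq2, 60 without marked doublets and 46 without the highest cell of each gene, and 235 without the filter on low counts. Removing 1 library gave 49 to 134 genes. In dividing cells of any Olfm4 level 90 genes were called. Replicate numbers pair the samples by name. The correlation of the differences between numbered replicates was 0.173 over 4416 genes, which, for a single pair of genotypes, cannot show whether replicates were processed together. A replicate block raised the called genes to 206, and in the lineage-traced cells from 132 to 205, where leaving out 1 library gave 77 to 162. Interactions against dividing Olfm4-low cells called 28 to 57 genes with 1 library left out, where 46 were called with all, and against non-dividing Olfm4-high cells 20 to 48 in place of 4, with 25 without the filter. The genotype difference in the share of replication UMIs ran from -0.0289 to 0.0543 percentage points. The difference in median excess CV squared was -0.0150 to -0.00551 with 1 library left out. Without thinning, cells were scaled to equal totals, which makes it a different measure, and the difference was 0.0325. The medians then ran from -0.0283 in Lgr5+Setdb1KO replicate 1, the deepest by UMIs per member, to 0.448 in Lgr5+Setdb1KO replicate 2, the shallowest. In equal numbers of cells thinned to 4000 UMIs, Eif3j2, Mogat2, 1500011B03Rik and Slc24a5 were not called (log2 fold changes 1.40, 1.36, 1.05 and -1.46, adjusted p = 0.403, 0.323, 0.559 and 0.238, edgeR). Gip had a log2 difference of -0.55 without its highest cells. The causes were not tested. The shares of dividing Olfm4-high cells kept their direction under each alternative run. The planned fits of such cells in the lineage-traced libraries were not run, since 2 to 24 barcodes per library met the rule.

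For genes not called, a log2 fold change near 0 changed sign under some alternatives. In dividing cells of any Olfm4 level, it was 0.011 for Ube2s, -0.079 for Rbbp4, -0.031 for Pclaf, -0.026 for Dut, -0.13 for Cdca7, -0.083 for Hes1, -0.057 for Cbx3, -0.076 for Cbx1, 0.12 for Tff3 and -0.042 for Mki67. With at least 12 mitotic UMIs, it was -0.025 for Rbbp4 and -0.0029 for Cbx1. With mitotic genes at 0.15% of UMIs or more, it was -0.038 for Rbbp4, -0.011 for Cbx1 and -0.020 for Mki67. With Olfm4 at 0.5% of UMIs or more, it was -0.021 for Rbbp4, -0.072 for Pclaf, -0.076 for Cdca7, -0.042 for Ifi35 and 0.16 for Foxm1. With wider upper limits, it was -0.0011 for Rbbp4 and -0.034 for Pclaf. Without the filter on low counts, it was -0.0053 for Pclaf and -0.0069 for Hes1. With a replicate block, it was -0.0020 for Pclaf. In equal numbers of cells thinned to 4000 UMIs, it was -0.025 for Pclaf, -0.12 for Dut, 0.054 for Slc12a2, -0.084 for Cdca7, -0.083 for Cbx1, 0.16 for Topbp1 and -0.040 for Mki67. With 1 library left out, the values that changed sign spanned the following ranges: Cks2 (-0.15 to 0.016), Cdk1 (-0.040 to 0.21), Ube2s (-0.076 to 0.0046), Anapc13 (-0.17 to 0.056), Cenpa (-0.31 to 0.048), Cdca8 (-0.019 to 0.16), Rbbp4 (-0.081 to 0.13), Pclaf (-0.15 to 0.15), Dut (-0.090 to 0.15), Cdca7 (-0.062 to 0.14), Hes1 (-0.083 to 0.087), Cbx3 (-0.048 to 0.079), Cbx1 (-0.080 to 0.11), Bax (-0.20 to 0.095), Ei24 (-0.21 to 0.061), Ifi35 (-0.049 to 0.14), Spink4 (-1.64 to 0.065), Tff3 (-1.03 to 0.42), Onecut2 (-0.44 to 0.023) and Mki67 (-0.18 to 0.28).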
